A study of Mus musculus with 12 samples.

Results

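Mediator is a large protein complex that carries signals from transcription factors bound at enhancers to RNA polymerase II at promoters. Its genes were taken by symbol from the deposited count table: Med followed by digits with an optional letter l, together with Cdk8, Cdk19 and Ccnc. The rule used no measured value. It gave 33 of the 25897 symbols in the table, and all 33 matched 1 gene of the GENCODE M21 annotation of the GRCm38 genome. They were described in mouse embryonic stem cells, the line E14tg2a (129SV background), equipped with a cRAF-ERT2 construct.

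That construct fuses a RAF kinase to part of the oestrogen receptor. Its ligand 4-hydroxytamoxifen (4OHT) thereby activates the kinase and, through it, ERK. There were 4 groups of 3 libraries: cells without 4OHT (untreated) and cells after 1, 2 and 4 h in 250 nM 4OHT, each from clones a, b and c. All groups shared growth in serum, LIF and 2 µM Chir99021, an inhibitor of GSK3. All were moved 24 h before treatment into serum and LIF with the FGF receptor inhibitor PD173074 at 250 nM, and all received 5 mM ethynyl uridine 15 min before RNA was isolated. Total RNA was sequenced after removal of ribosomal RNA. The sample titles and the series design give the times 1, 2 and 4 h, whereas the treatment protocol names only 0 h and 2 h. No group received the carrier of 4OHT alone, so the effects of kinase activation, of the carrier and of the ligand itself cannot be told apart. The 3 clones come from 1 cell line, so p-values measure the spread between clones of that line.

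By its known architecture the complex has a head and a middle, which contact the polymerase, a tail, which meets many activators, and the scaffold subunit MED14 that runs through all of these. A separate kinase module, made of CDK8 or CDK19, cyclin C, MED12 or MED12L and MED13 or MED13L, binds the rest reversibly. Mediator is known in embryonic stem cells for its part, with cohesin, at enhancers of genes of cell identity. MED23 is known to be bound by ELK1, an ETS factor that ERK phosphorylates. The members divided into 7 head genes, 9 middle genes, Med14, 4 genes at the junction of head and tail (Med27 to Med30), 5 tail genes and 7 kinase module genes.

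Total counts per library were 24213641 to 31435301. Levels are given in CPM, counts scaled to a common library size, in the order of clones a, b and c, and 1 count was worth 0.0308 to 0.0408 CPM. The 8 stem cell markers examined were each above 1 CPM in all 12 libraries, and their summed level was 4307 to 4699 CPM in untreated cells, 4831 to 5352 CPM at 1 h, 4825 to 5496 CPM at 2 h and 4287 to 4307 CPM at 4 h. The summed levels of markers of other cell types were low, and those of 3 of the 4 types examined were higher at 4 h than in untreated cells: 5 fibroblast markers went from 3.39 to 4.22 CPM untreated to 11.6 to 26.4 CPM at 4 h. For 5 trophoblast markers the sums were 17.4 to 30.6 CPM and 31.8 to 65.7 CPM, and for 3 neural markers 7.56 to 9.47 CPM and 10.2 to 18.8 CPM, with Neurod1 at 0 in every library. For 5 primitive endoderm markers the ranges overlapped, at 4.78 to 10.8 CPM and 3.33 to 7.98 CPM. Above 1 CPM in all libraries were only 1 fibroblast, 2 trophoblast, 1 neural and 1 primitive endoderm marker, so a sum can turn on few genes. The part of these markers in the Mediator results was not tested. As a check of the treatment, the ERK-induced genes Dusp6, Fos, Spry4 and Egr1 all rose at all 3 times, with a log2 change of Spry4 of 3.33 ± 0.46 (SE) at 1 h (edgeR adjusted p = 0.0216, higher in 3 of 3 clones).

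After 4 h of 4OHT, 10 Mediator genes had risen and 3 had fallen, and the kinase module held both extremes: Ccnc rose 1.75-fold while Cdk19 dropped to 0.557 of its untreated level. At 1 h none passed the test, and at 2 h 5 had risen and 1 had fallen. A gene is called changed here when its adjusted p is under 0.05 in edgeR's quasi-likelihood test. Of the 33 members 32 had enough counts to be tested, among 14185 genes tested in all. In bulk RNA of this kind, fewer cells that express a gene and less RNA per cell cannot be told apart.

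At 4 h the 10 members that rose stood beside 18.0% of all genes tested that rose, and the 3 that fell beside 15.1% that fell. At 2 h, 9.56% of all genes rose and 6.64% fell, beside 5 and 1 of 32 members. In either direction 18.8% of the tested members were called at 2 h against 16.2% of all genes, and 40.6% against 33.1% at 4 h. Counted without direction, the calls set the members little apart. Of the 32 members, 25 had a log2 change above 0 at 4 h (78.1%), against 48.4% of all genes. That share was 65.5% to 80% for the lists of RNA polymerase II subunits, general transcription factors, elongation genes and cohesin. At 1 h the test called 0 members, and over all genes it called 0.0775% higher and 0.0% lower. At that time 5 of 32 members had an unadjusted p under 0.05, beside 1630 of the 14185 genes tested. DESeq2 and limma-voom also called 0 members. The median log2 change of the 32 members was 0.08, 0.14 and 0.16 at 1, 2 and 4 h, against a median of −0.02 over all genes at each time. All times are set against the same untreated libraries, so the 3 sets of changes are not independent.

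Clone letters pair the libraries, and a fit with clone as a block called more genes. Where it changes a member's call, its adjusted p is given as blocked by clone. With the block 3 members were higher at 1 h (Med16 with an adjusted p of 0.037, Med22 and Med25), beside 5.41% of all genes called higher and 1.58% called lower. For 2 h it called 12 members higher and 3 lower, beside 20.6% and 20.0% of all genes. Among those called at 2 h in the blocked fit alone were Med8 (log2 0.19, adjusted p = 0.00691), Med15 (0.26, 0.0432), Med16 (0.41, 0.0195), Med24 (0.17, 0.0342), Med27 (0.20, 0.0474) and Med9 (−0.25, 0.0412). At 4 h it called 15 higher and 4 lower, beside 26.2% and 25.7%.

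**Figure D1:**
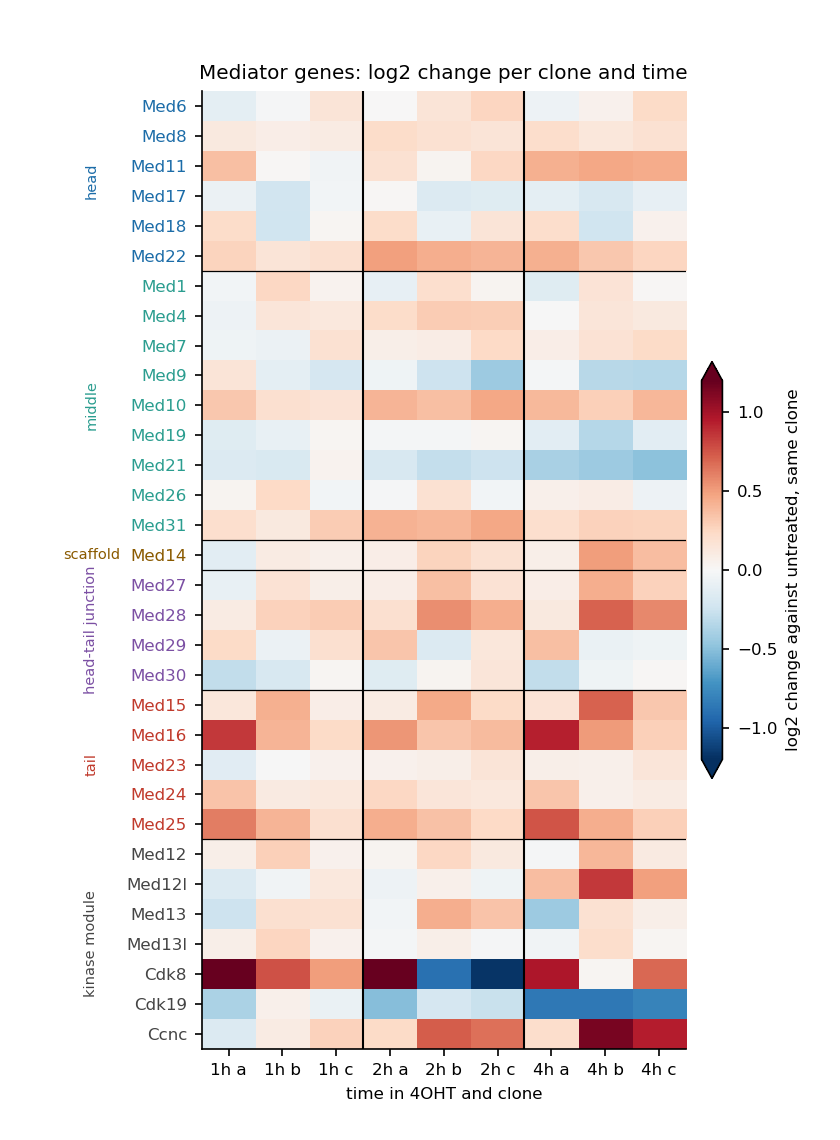
Log2 change of each tested Mediator gene (rows, grouped by part of the complex) in each clone at 1, 2 and 4 h of 4OHT against the untreated library of the same clone (columns); red is higher and blue lower, and the colour scale ends at 1.2 in either direction. Cdk19 is blue in all 3 clones at 4 h, Ccnc at 4 h is palest in clone a, and Cdk8 changes sign between clones at 2 h.

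The kinase module was the part of the complex with the widest changes. Cdk19, which encodes a kinase closely related to CDK8, was at 60.7, 48.8 and 46.0 CPM in untreated cells. It was at 46.6, 50.9 and 43.7 CPM at 1 h, at 42.5, 42.5 and 38.3 CPM at 2 h and at 33.5, 26.9 and 26.3 CPM at 4 h. The untreated and 4 h libraries did not overlap, and each clone was lowest at 4 h. The log2 change at 4 h was −0.84 ± 0.12 (edgeR adjusted p = 0.000759), and within clones it was −0.86, −0.86 and −0.81. At 2 h the log2 change was −0.34 ± 0.12 and did not pass (edgeR adjusted p = 0.0811; blocked by clone 0.0113). The 4 h call was the only one of the members' calls against untreated cells that held under all 16 alternatives tried, with a log2 change between −0.96 and −0.72.

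Ccnc encodes cyclin C, the partner that activates both kinases. It was at 82.6, 82.1 and 75.4 CPM untreated and at 73.6, 87.8 and 91.3 CPM at 1 h. At 2 h it reached 96.9, 136 and 119 CPM, and at 4 h 95.4, 180.4 and 145 CPM. Every library at 2 and 4 h lay above every untreated library, but clone a stood well below clones b and c at 4 h. The log2 change was 0.55 ± 0.19 at 2 h (edgeR adjusted p = 0.072; blocked by clone 0.0109) and 0.81 ± 0.19 at 4 h (edgeR adjusted p = 0.00911). Within clones a, b and c the 4 h change was 0.21, 1.14 and 0.95. The call at 4 h was lost when all libraries of clone b were left out (log2 0.61, adjusted p = 0.0843) or all of clone c (0.75, adjusted p = 0.159). At 2 h Ccnc passed without clone a (log2 0.69, adjusted p = 0.0106) and without the 2 h library of clone a alone (0.67, 0.0407).

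The same order of clones at 4 h was seen in 3 of 4 ERK-induced genes (Spry4, Fos and Egr1) and in the reads of Esr1, the oestrogen receptor gene. At 4 h the log2 change of Spry4, a feedback inhibitor of ERK signalling, was 2.75, 4.07 and 3.51 in clones a, b and c. Dusp6, the other one, was also least changed in clone a but most in clone c (2.40, 2.70 and 2.78). Esr1 counts, which may include reads of the ERT2 domain, were 9.44 to 18.6 CPM in clone a, 93.4 to 259.9 CPM in clone b and 38.8 to 44.4 CPM in clone c. The part of construct level in the Ccnc result was not tested.

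Med12l was the third kinase module gene called at 4 h. With 3 of 7 genes called, the module stood at 42.9% beside 33.1% of all genes in either direction. With clone as a block it stood at 42.9% beside 52.0%. Med12l encodes a paralog of MED12, the subunit that links cyclin C to the kinase module and stimulates the kinase. Its level was 6.57, 6.01 and 6.40 CPM untreated, 5.84, 5.83 and 6.99 CPM at 1 h, 6.28, 6.26 and 6.16 CPM at 2 h and 8.49, 10.9 and 9.01 CPM at 4 h. The libraries of the first 3 groups lay in 1 narrow band, and all 3 libraries at 4 h lay above it. The log2 change at 4 h was 0.58 ± 0.13 (edgeR adjusted p = 0.00722), on 143 to 321 counts per library. The call was lost without clone b (log2 0.43, adjusted p = 0.118) and without clone c (0.62, adjusted p = 0.096). Exons of Igsf10 and of other genes on the opposite strand cover 17.3% of its exon sequence, and the strand setting of the counting is not given in the sources used here.

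Med12 itself was at 38.7, 37.9 and 45.0 CPM untreated, 40.7, 46.2 and 46.7 CPM at 1 h, 39.6, 44.9 and 48.7 CPM at 2 h and 38.4, 49.9 and 48.5 CPM at 4 h, with overlap between the groups. Its log2 change was 0.17 ± 0.12 (edgeR adjusted p = 0.302). Within each library the log2 ratio of Med12l to Med12 counts per kilobase was −3.41 ± 0.13 (SD, n = 3) untreated and −3.00 ± 0.14 at 4 h. The exact permutation test gave p = 0.1 for this difference of 0.41, the smallest p that 3 against 3 libraries allow (0.3 after adjustment over 9 ratio tests). At 1 h the ratio differed by −0.16 and at 2 h by −0.15 (exact p = 0.3 for each).

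Med13 and Med13l encode the subunits that join the kinase module to the rest of the complex. Med13 was at 176, 169 and 155 CPM untreated, 148, 193 and 177 CPM at 1 h, 172, 228 and 197 CPM at 2 h and 130.1, 191 and 162 CPM at 4 h. Its groups overlapped throughout and the clones disagreed in sign, with log2 changes of −0.43, 0.18 and 0.07 at 4 h. Without clone a Med13 passed at 2 h (log2 0.39, edgeR adjusted p = 0.0439). Med13l was at 194, 180.3 and 212 CPM untreated, 203, 216 and 219.7 CPM at 1 h, 191, 189 and 209.6 CPM at 2 h and 188, 209 and 215 CPM at 4 h, without a call at any time. The ratio of Med13l to Med13 differed from untreated by 0.08, −0.24 and 0.13 on the log2 scale at 1, 2 and 4 h (exact permutation p = 0.5, 0.3 and 0.6).

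**Figure D2:**
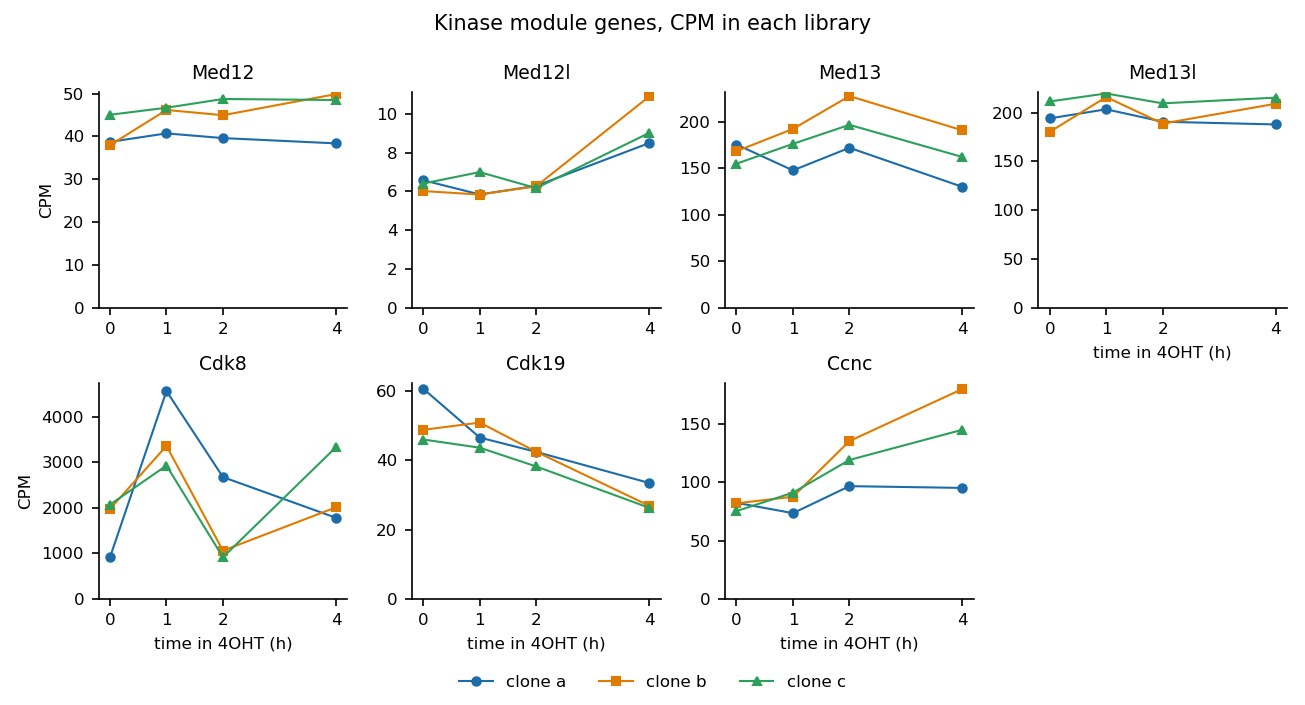
CPM of the 7 kinase module genes in each of the 12 libraries against hours in 4OHT (0 h is untreated), with 1 line per clone and vertical axes from 0. Cdk19 falls to 26.3 to 33.5 CPM at 4 h in every clone, Ccnc separates clone b and clone c from clone a, Med12l stays near 6 CPM until 2 h, and Cdk8, which reaches 4566 CPM, has no shared course between clones.

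Cdk8, the best known Mediator kinase, stood apart from every other member in level and in spread. It was at 909.5, 1974 and 2069 CPM untreated, 4566, 3361 and 2929 CPM at 1 h, 2675, 1059 and 913 CPM at 2 h and 1781, 2011 and 3333 CPM at 4 h. It took rank 9 to 94 of the 25897 symbols, while no other member exceeded 228 CPM in any library (Med13). The highest library held 5.02 times the level of the lowest, against 1.16 to 2.45 times for the other 31 tested members. All 1 h libraries lay above all untreated libraries, but the clones parted afterwards: at 2 h the log2 changes were 1.56, −0.90 and −1.18. No comparison with untreated cells was called with all libraries, with log2 changes of 1.13 ± 0.43, −0.09 ± 0.42 and 0.52 ± 0.42 (edgeR adjusted p = 0.348, 0.896 and 0.363). With clone a left out the 2 h change of Cdk8 was −1.04 and passed (edgeR adjusted p = 0.0204), so the value at 2 h turns on that clone.

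A few other genes of very high count also differed widely within groups, and 2 are named here after their values were seen. Lars2, a mitochondrial leucyl-tRNA synthetase, was at 4990.2, 15005 and 10033 CPM untreated and at 27450.0, 13767 and 14571 CPM at 1 h. It was at 17792, 2344 and 1070.1 CPM at 2 h and at 1768, 876 and 9235 CPM at 4 h. The library with the most Lars2 was also that with the most Cdk8 (clone a at 1 h), whereas the library with the least Lars2 (clone b at 4 h) held 2011 CPM of Cdk8. Jarid2, which encodes a subunit of the PRC2 complex, followed Cdk8 more closely, with 1116, 3244 and 2260.4 CPM untreated, 5754, 3592 and 3390.4 CPM at 1 h, 3743, 1478 and 1075 CPM at 2 h and 1284, 1526 and 3169 CPM at 4 h. The highest library (clone a at 1 h) and the 2 lowest (clone a untreated and clone c at 2 h) were the same for Jarid2 and Cdk8. The rule for reads with several matches is not given in the sources used here, and what the high counts share was not tested. The log2 ratio of Cdk19 to Cdk8 per kilobase differed from untreated by −1.33, −0.15 and −1.40 at 1, 2 and 4 h (exact permutation p = 0.1, 1 and 0.1). A p of 0.1 is the smallest possible here, and it was 0.3 after adjustment over 9 ratio tests. This ratio rests on the uneven Cdk8 counts: at 1 h the log2 change was −0.14 for Cdk19 and 1.13 for Cdk8, neither called.

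Among core subunits, the head gene Med22 had the smallest p over the 3 treated times. MED22 pairs with MED11 in the head. Med22 was at 58.5, 64.3 and 63.5 CPM untreated, 70.4, 71.4 and 72.6 CPM at 1 h, 82.5, 86.7 and 84.0 CPM at 2 h and 78.8, 80.3 and 76.0 CPM at 4 h. No 2 of these groups overlapped, and the highest came at 2 h. The log2 change was 0.20 ± 0.06 at 1 h (edgeR adjusted p = 0.282; blocked by clone 0.0348), 0.44 ± 0.06 at 2 h (0.00317) and 0.34 ± 0.06 at 4 h (0.00209). The 2 h call was lost without clone b (adjusted p = 0.0688) or clone c (0.223), and the 4 h call without clone c (0.059).

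Med11 was at 13.3, 14.2 and 13.9 CPM untreated and at 17.1, 14.3 and 13.5 CPM at 1 h. It was at 15.1, 14.5 and 16.5 CPM at 2 h and at 17.9, 19.6 and 18.9 CPM at 4 h. Only the 4 h libraries lay clear of all others, and the 3 clones moved alike there (log2 0.43, 0.47 and 0.44). The change at 4 h was 0.45 ± 0.11 (edgeR adjusted p = 0.00902), and it was lost without clone b (0.0923) or clone c (0.109).

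Of the other head genes, Med6, Med17 and Med18 were not called in any comparison, with log2 changes at 4 h between −0.13 and 0.07. MED17 is a central subunit of the head, and Med17 stood at 113, 109 and 105 CPM untreated and 104, 95.5 and 98.5 CPM at 4 h. Med8 differed between clones more than with time: clone b held 94.0 to 107 CPM at the 4 times, and clones a and c 64.1 to 74.6 CPM. Within clones Med8 was higher by 0.21, 0.14 and 0.18 at 4 h, and it passed only with clone as a block (edgeR adjusted p = 0.57, or 0.00652 with the block). Med20 had 0 counts in all 12 libraries. As a matter of sampling alone this allows up to 3 counts, or 0.0925 to 0.123 CPM, per library. Gm20517, a gene on the same strand that shares 513 bases of exon with Med20, held 46 to 99 counts per library. Whether the 0 reflects the level of Med20 RNA or the way reads were counted was not tested.

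The middle contained the clearest fall among core subunits. Med21, whose protein pairs with MED7 in a flexible hinge of the middle, was at 45.0, 45.2 and 44.1 CPM untreated and at 40.1, 39.9 and 45.4 CPM at 1 h. It was at 39.3, 37.0 and 37.2 CPM at 2 h and at 34.4, 33.4 and 31.4 CPM at 4 h. The untreated, 2 h and 4 h groups did not overlap and stood in that order from high to low. The log2 change was −0.24 ± 0.07 at 2 h (edgeR adjusted p = 0.0467) and −0.44 ± 0.07 at 4 h (0.00164). The 2 h call was lost in 5 of 6 fits that left out 1 library, namely all but clone a at 2 h, with adjusted p between 0.0828 and 0.15. The 4 h call was lost without clone c (0.059).

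Med7, the partner gene, was not called in the fit without block, with a log2 change of 0.16 ± 0.09 at 4 h (edgeR adjusted p = 0.192; blocked by clone 0.0486). Med4 was at 60.4, 57.2 and 57.0 CPM untreated, 58.0, 63.3 and 62.1 CPM at 1 h, 70.4, 70.8 and 69.9 CPM at 2 h and 60.0, 63.4 and 61.7 CPM at 4 h. The 2 h libraries stood above all others, and the 4 h libraries overlapped the untreated ones again. The log2 change was 0.27 ± 0.06 at 2 h (edgeR adjusted p = 0.0175) and 0.08 ± 0.06 at 4 h (0.314), and the drop from 2 to 4 h of −0.19 passed only with the block (0.101, or 0.0276 with it). The 2 h call was lost without clone b untreated (0.0619), clone b at 2 h (0.0785) or clone c at 2 h (0.0685).

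Med10 and Med31 were also called at 2 h, with log2 changes of 0.41 ± 0.12 (edgeR adjusted p = 0.0449) and 0.43 ± 0.11 (0.0241). Med10 remained called at 4 h (0.35 ± 0.12, edgeR adjusted p = 0.0459), while Med31 was at 0.25 ± 0.11 (0.0886; blocked by clone 0.0167). Both were higher in 3 of 3 clones at both times. The Med10 calls were lost in 5 of 6 single-library omissions at 2 h, all but clone a at 2 h (0.0663 to 0.161), and in 4 of 6 at 4 h (clones a and c untreated, b and c at 4 h; 0.0743 to 0.157). That of Med31 was lost without clone a or b untreated, or clone b or c at 2 h (0.0633 to 0.104). Opposite-strand genes cover 92.8% of the exon sequence of Med10 (Gm26819) and 26.3% of that of Med31 (4930563E22Rik), so their counts cannot be separated from those genes here.

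Med19 was the other middle gene that fell at 4 h, by −0.20 ± 0.07 (edgeR adjusted p = 0.0412). That call was at the threshold: with another scaling (RLE factors in edgeR) its adjusted p was 0.0501, and 5 of 6 single-library omissions lost it, all but clone a at 4 h (0.0505 to 0.158). Med1, whose protein binds nuclear receptors, was at 125, 114 and 120.1 CPM untreated, 122, 136 and 124 CPM at 1 h, 117, 131 and 123 CPM at 2 h and 112, 128 and 121 CPM at 4 h. Its groups overlapped at every time, and its log2 changes were 0.09, 0.05 and 0.01 (each ± 0.07) at 1, 2 and 4 h. Med26, which links Mediator to elongation factors, was not called either (0.03 ± 0.08 at 4 h). Med9 was lower by −0.24 ± 0.11 at 4 h, past the threshold only with clone as a block (edgeR adjusted p = 0.123, or 0.0411 with it).

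The scaffold gene Med14 was at 59.0, 51.1 and 51.9 CPM untreated and at 54.1, 54.7 and 54.0 CPM at 1 h. It was at 62.4, 61.4 and 59.1 CPM at 2 h and at 61.8, 72.4 and 67.1 CPM at 4 h. The 4 h libraries lay above the untreated ones, by little in clone a (log2 0.07) and by more in clones b and c (0.50 and 0.37). The log2 change at 4 h was 0.31 ± 0.08 (edgeR adjusted p = 0.0107), and leaving out clone b at 4 h brought it to 0.25 (0.0522).

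At the junction of head and tail Med28 rose and the other 3 genes were not called. Med28 was at 46.5, 44.6 and 44.9 CPM untreated, 49.8, 53.9 and 55.3 CPM at 1 h, 53.3, 65.6 and 60.8 CPM at 2 h and 50.5, 73.0 and 66.8 CPM at 4 h. All treated libraries lay above all untreated ones, with clone a the lowest at each treated time. The log2 change was 0.40 ± 0.12 at 2 h (edgeR adjusted p = 0.0472) and 0.48 ± 0.12 at 4 h (0.0119). The 4 h call was lost without clone b at 4 h (0.37, adjusted p = 0.0548). The 2 h call was lost with limma-voom (0.0521) and in 5 of 6 single-library omissions, all but clone a at 2 h (0.0916 to 0.18). Med27 was higher by 0.28 ± 0.15 at 4 h, past the threshold only with clone as a block (edgeR adjusted p = 0.18, or 0.0118 with it), or without clone a (0.35, 0.0298) or its 4 h library (0.40, 0.046).

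In the tail, 3 of 5 genes rose at 4 h (Med15, Med16 and Med25), beside 18.0% of all genes tested. With clone as a block 4 rose, beside 26.2%. Med25, whose protein is a docking site for acidic activators, ETS factors among them, was at 58.3, 71.3 and 82.9 CPM untreated and at 89.0, 94.8 and 94.9 CPM at 1 h. It was at 78.9, 91.0 and 97.7 CPM at 2 h and at 98.3, 96.6 and 101 CPM at 4 h. The untreated clones were spread widely and lay below all libraries of 1 h and of 4 h. The log2 change was 0.39 ± 0.12 at 1 h (edgeR adjusted p = 0.282; blocked by clone 0.0165), 0.33 ± 0.12 at 2 h (0.0684, or 0.00694) and 0.48 ± 0.12 at 4 h (0.00929). The 4 h call was lost without clone b (0.0903), and at 2 h Med25 passed without clone c untreated (0.46, 0.033) or clone a at 2 h (0.41, 0.0326).

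Med16 had the same shape at a lower level, with 11.6, 16.2 and 18.5 CPM untreated and 22.2, 23.2 and 22.6 CPM at 4 h. Its log2 change at 4 h was 0.55 ± 0.16 (edgeR adjusted p = 0.024), and it was lost without clone a untreated (0.38, adjusted p = 0.0684), clone b at 4 h (0.0642) or clone c at 4 h (0.0619). At 2 h Med16 passed without clone a at 2 h (0.53, adjusted p = 0.0426). For both Med16 and Med25 clone a changed most at 4 h (log2 0.93 and 0.75) and clone c least (0.28 for each), the reverse of Ccnc and Med28, where clone a changed least. Med15, which encodes a binding partner of SREBP and SMAD factors, changed by 0.41 ± 0.14 (edgeR adjusted p = 0.0399) with overlapping groups. It was lost in 4 of 6 single-library omissions (clones a and b untreated, b and c at 4 h; 0.108 to 0.154).

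Med23 and Med24, whose proteins lie side by side in the tail, were not called at any time in the fit without block. Med23 was at 121, 117 and 114 CPM untreated, 111, 117 and 119 CPM at 1 h, 126, 124 and 128 CPM at 2 h and 128, 123 and 126 CPM at 4 h. All 2 h and 4 h libraries lay above the untreated ones, yet by only 0.09 ± 0.05 on the log2 scale at each time (edgeR adjusted p = 0.239 and 0.209). Med23 had the narrowest range of all tested members, 1.16-fold from lowest to highest library. Med24 was at 76.1, 94.0 and 91.6 CPM untreated, 96.7, 101 and 100.1 CPM at 1 h, 90.3, 104 and 100.02 CPM at 2 h and 95.8, 98.3 and 97.8 CPM at 4 h, with clone a untreated the low library. Its log2 change at 4 h was 0.16 ± 0.08 (edgeR adjusted p = 0.169; blocked by clone 0.0349).

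**Figure D3:**
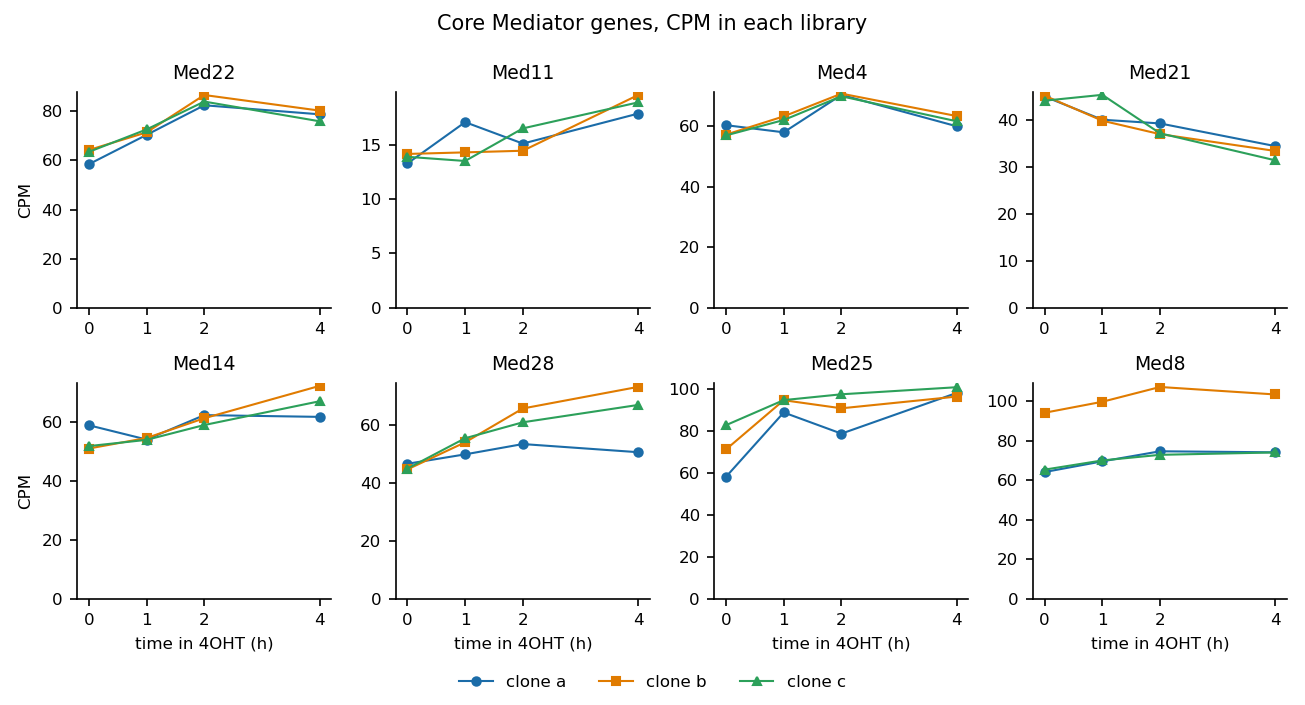
CPM of 8 genes of the head, middle, scaffold, junction and tail in each library against hours in 4OHT (0 h is untreated), with 1 line per clone and vertical axes from 0. Med22 and Med4 are highest at 2 h, Med21 is lowest at 4 h in every clone, and Med8 keeps clone b above the other clones at all times.

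Over the comparisons with untreated cells, 15 members were called at 2 h or 4 h and 4 at both (Med10, Med21, Med22 and Med28), beside 37.2% and 12.1% of all genes tested. With the block these counts were 20 and 14, beside 60.9% and 31.6%. In neither fit with all libraries were 11 tested members called in any comparison: Med6, Med17, Med18, Med1, Med26, Med29, Med30, Med23, Med12, Med13l and Cdk8. For these genes the data give no call, which does not show that they were the same at all times.

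**Figure D4:**
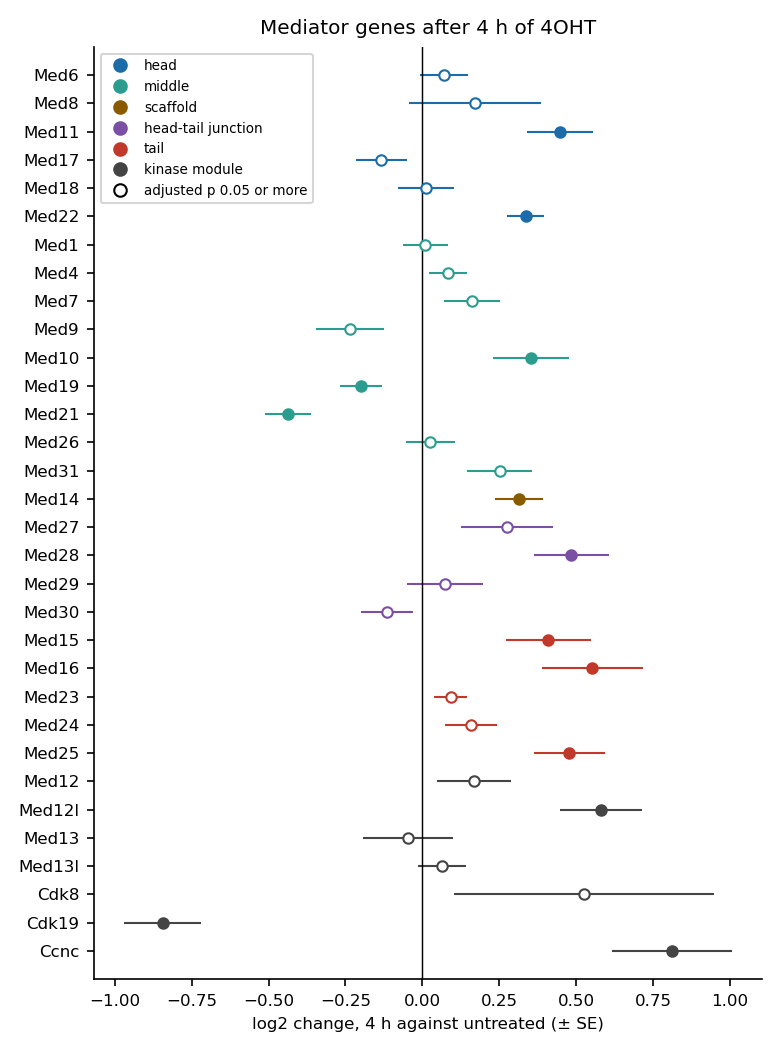
Log2 change of the 32 tested Mediator genes at 4 h against untreated (horizontal axis, ± SE of the edgeR fit, 3 clones per group), coloured by part of the complex; filled points have an adjusted p under 0.05. Cdk19 at −0.84 and Ccnc at 0.81 lie at the ends, and Cdk8 has the widest error bar.

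Direct comparison of the treated times asked which members went on changing. From 1 to 2 h 0 members passed, beside 0.0634% of all genes in either direction. An unadjusted p under 0.05 was seen for 5 of 32 members, beside 2291 of the 14185 genes tested, and DESeq2 called 2. With clone as a block 3 passed (Med4 0.0349, Med22 0.0155 and Ccnc 0.0461) beside 12.6% of all genes. From 2 to 4 h Med12l rose by 0.60 ± 0.13 (edgeR adjusted p = 0.0293) and Cdk19 fell, by −0.51 ± 0.12 (0.0428), beside 4.68% of all genes. Both calls were lost whenever a library of clone b or c at 2 or 4 h, or of clone a at 2 h, was left out (0.0617 to 0.171). With the block 5 members passed beside 22.0%, Med4 (0.0276), Med13 (log2 −0.31, 0.0402) and Med19 (−0.19, 0.0468) being lower too. From 1 to 4 h 5 members passed beside 19.6% of all genes, and 7 with the block beside 39.8%, Med11 (0.33, 0.0241) and Med27 (0.21, 0.0416) among them. Ccnc, Med12l and Med14 were higher at 4 h than at 1 h, by 0.74, 0.61 and 0.31, and Cdk19 and Med21 were lower, by −0.70 and −0.34. Single omissions ended the calls of Ccnc (clone a or b at 1 h, clone b or c at 4 h; 0.0534 to 0.0876), Med14 (any 1 h library, clone b or c at 4 h; 0.0527 to 0.0816) and Med21 (clone c at 4 h; 0.0521). All 5 calls, those of Cdk19 and Med12l included, were lost without all of clone b (0.076 to 0.189) or all of clone c (0.0969 to 0.274).

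Levels of different genes were compared per kilobase of exon, in untreated cells. Without Cdk8 (168 ± 65.5 CPM per kilobase, SD, n = 3) and Med20, the members spanned 0.496 ± 0.022 CPM per kilobase for Med12l to 43.1 ± 2.2 for Med6. Of the 32 tested members 29 lay above the median of all genes tested with a length, 4.34 CPM per kilobase. The others were Med15 at 2.87 ± 0.30, Med16 at 3.31 ± 0.76 and Med12l. Head genes had the highest median, 24.4 CPM per kilobase, followed by middle genes at 13.7, kinase module genes at 10.8 and tail genes at 9.29. Junction genes had a median of 8.72. With the longest transcript as the length head genes still came first (28.0), but tail genes came next (19.1), followed by middle (14.9), junction (13.2) and kinase module genes (12.4). By exon length the single scaffold gene Med14 was at 6.16 ± 0.50.

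Neighbours in that order often lay within their spread: Med17 at 25.8 ± 0.91, Med8 at 24.8 ± 5.7 and Med18 at 23.9 ± 2.1 cannot be ranked. Med23 at 17.6 ± 0.52, Med4 at 17.4 ± 0.56 and Med22 at 17.2 ± 0.87 were likewise within their spread. Paralogs were far apart in 1 pair and close in another, since Med12 was at 5.27 ± 0.51 against 0.496 for Med12l, and Med13 at 15.4 ± 0.97 against 12.7 ± 1.0 for Med13l. The measure of length matters: with the longest transcript in place of all exons Med21 went from 12.7 to 26.2 and Med15 from 2.87 to 9.61 CPM per kilobase.

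**Figure D5:**
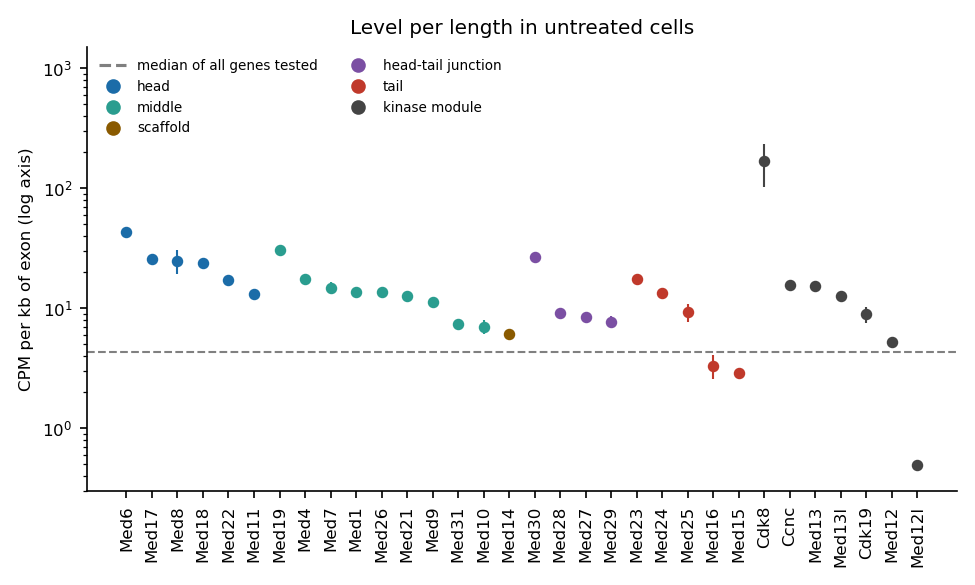
Level of each tested Mediator gene in untreated cells in CPM per kilobase of exon (log axis; points are means and bars SD of 3 clones), ordered within each part of the complex, with the median of all genes tested as a dashed line. Cdk8 stands above all others, and Med15, Med16 and Med12l lie under the line.

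The sequence upstream of the start is printed for Ccnc and Med21 as examples, a kinase module gene that rose and a middle gene that fell. Both are among the members with motif matches. ETS factors and CREB-like factors are known nuclear endpoints of ERK signalling. Promoter windows of 250 bases before the RefSeq start (GRCm38.p6) were found for 28 of the 33 members, 32 windows in all. They are shown 5′ to 3′ on the gene's strand, up to the first annotated start, with capitals for motifs found on either strand. Capitals mark the ETS core CCGGAA, the cyclic AMP response element TGACGTCA and the CCAAT box (ATTGG on the other strand). Ccnc is shown for chr4:21727451-21727700 (+ strand) and Med21 for chr6:146642329-146642546 (+ strand).
Ccnc: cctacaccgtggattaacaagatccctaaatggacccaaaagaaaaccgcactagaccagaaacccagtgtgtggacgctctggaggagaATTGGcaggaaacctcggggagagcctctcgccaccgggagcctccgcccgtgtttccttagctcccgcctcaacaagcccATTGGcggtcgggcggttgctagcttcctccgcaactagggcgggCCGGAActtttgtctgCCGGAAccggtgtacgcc
Med21: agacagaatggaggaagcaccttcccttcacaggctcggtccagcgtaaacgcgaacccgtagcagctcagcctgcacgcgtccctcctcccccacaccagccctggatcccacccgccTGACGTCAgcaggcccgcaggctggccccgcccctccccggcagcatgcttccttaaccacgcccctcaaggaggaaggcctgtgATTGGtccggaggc

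Ccnc held an ETS core at 34 and at 18 bases before the start and a CCAAT box at 160 and at 79 bases before it. Med21 held the cyclic AMP response element at 131 bases before the RefSeq start, and 1 CCAAT box at 46 bases in the stretch shown. The element was in no other member's window, in 1.55% of all 32817 windows and in 2.45% of those of tested genes. An ETS core was in the windows of 10 of 28 member genes (Ccnc, Med4, Med7, Med10, Med12, Med14, Med15, Med17, Med19 and Med20). Counted by window this was 10 of 32, against 12% of all windows and 19.9% of the 13900 windows of tested genes. The CCAAT box was in 11 of 28 member genes, or 12 of 32 member windows, against 35.2% of the windows of tested genes. An AP-1 motif TGANTCA was found in Med19 and Med28 (6.75% of all windows, 4.66% of those of tested genes), an E-box CACGTG in Cdk8 and Med17 (6.02% and 8.09%) and an EGR motif GCGTGGGCG in Med14 (0.536% and 1.03%). None of the motifs searched is contained in another, and a match describes letters only. Several changed members had no match: the upstream stretches of Med22, Med11, Med16 and Med31, each called against untreated cells, held 0. In Med7, Med10, Med12 and Med15 the ETS cores lay past the first annotated start, so outside the upstream stretch as defined for printing. Of the 10 member genes with an ETS core in the window, 4 rose at 4 h (Ccnc, Med10, Med14 and Med15), 1 fell (Med19) and 1 had no counts to test (Med20). Beside them, 10 of all 32 tested members rose and 3 fell, and 18.0% and 15.1% of all genes tested. Whether the core goes with a change was not tested.

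Other parts of the transcription machinery were read from fixed lists for comparison. Of 13 RNA polymerase II subunit genes 5 rose and 0 fell at 4 h, among them Polr2f (0.75 ± 0.15, edgeR adjusted p = 0.00436) and Polr2h (0.31 ± 0.07, 0.00563). Of 29 tested general transcription factor genes 8 rose and 2 fell, with Cdk7, a kinase of TFIIH, at 0.44 ± 0.08 (edgeR adjusted p = 0.00269). Of 26 tested pause release and elongation genes 9 rose and 2 fell, with Supt6 at 0.51 ± 0.08 (edgeR adjusted p = 0.000977). Of 10 genes of cohesin and its loader 3 rose, including Stag2 at 0.36 ± 0.10 (edgeR adjusted p = 0.0196). These counts stand beside the same 18.0% of all genes that rose and 15.1% that fell. With clone as a block 6, 11, 12 and 4 genes of these lists, in that order, rose. In the same fit 0, 3, 4 and 0 fell, beside 26.2% and 25.7% of all genes. Of 4 genes for factors that bind MED23, 0 were called against untreated cells, and Elk1 was at −0.15 ± 0.10 at 4 h (edgeR adjusted p = 0.251). Elk1 was lower at 4 h than at 1 h (−0.33 ± 0.10, edgeR adjusted p = 0.0363). With clone as a block Cebpb was higher at 2 h than untreated (0.00738) and than at 1 h (0.0338), and Elk3 higher at 4 h than at 1 h (0.00103) and at 2 h (0.0116).

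The members lie on 17 chromosomes, with 7 of 33 on chromosome 11. Ccnc lies on chromosome 4 from 21727701 to 21759922 (+ strand), Cdk19 on chromosome 10 from 40339564 to 40483818 (+ strand), Med12l on chromosome 3 from 59005825 to 59318682 (+ strand), Med21 on chromosome 6 from 146642547 to 146650732 (+ strand) and Med22 on chromosome 2 from 26905262 to 26910677 (− strand). Coordinates are those of GRCm38 in GENCODE M21, and all are protein-coding genes. In all 18 members share exon sequence with another gene, and in 3 the share is over 25% of their exons: Med10, Med20 and Med31. Of the strongly changed members Cdk19 shares 4.58% with Cdk19os, Ccnc 5.40% with Tstd3 and Med21 15.5% with Gm6654 and Tm7sf3, all on the opposite strand, and Med22 and Med11 share none.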

How the data were processed

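Raw counts of reads for each gene symbol in 12 libraries of rRNA-depleted total RNA were deposited by the authors as 1 table. The submitters' processing notes name STAR, featureCounts, DESeq and mm10. No version, strand setting or rule for reads with several matches is given in the sources used here. Groups and clones came from the sample titles. The Mediator members, the other gene lists and the tests were chosen with earlier results of these data known.

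The filter filterByExpr, with a minimum count of 10 and a minimum total of 15, passed 14185 symbols to the tests and held back 11712. After TMM scaling, edgeR's quasi-likelihood model with a term for each group was fitted to all libraries. Versions were edgeR 4.0.16, limma 3.58.1 and R 4.3.3. That fit has 8 residual degrees of freedom, and its biological coefficient of variation is 0.163. Tests were 2-sided with Benjamini-Hochberg adjustment over all genes tested, at 0.05. The SE of a log2 change is its absolute value divided by the square root of the F statistic, and is approximate. Log2 changes within 1 clone were taken from log2 CPM with a prior count of 2. Paralog ratios used exact permutation tests, 2-sided. Lengths are GENCODE M21 exon unions. The fit was run on simulated counts drawn without a clone effect, so that run does not check it for libraries paired by clone.

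Given in every library were the 10 members with the smallest F test p over the 3 treated times (Med22, Cdk19, Med21, Med12l, Ccnc, Med4, Med14, Med11, Med25 and Med28), the kinase module, and Med1, Med14, Med23 and Med24. Of other lists up to 4 genes by the same p could be named. Genes outside this rule (Med6, Med7, Med8, Med9, Med10, Med15, Med16, Med17, Med19, Med20, Med26, Med27, Med31, Lars2 and Jarid2) were described after their values were seen.

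Libraries of 1 clone share its letter at all times, which pairs them. Their departures from the mean of each group were correlated in 18 of 18 pairs of 1 clone, with r between 0.184 and 0.684. Blocking by clone leaves 6 residual degrees of freedom and lowers the coefficient of variation to 0.0924. Calls of members that it changes carry its value too. Alternatives were other scaling (relative log expression, RLE, factors in edgeR), no filter, DESeq2 1.42.0, limma-voom, the compared groups alone, and each library or clone left out. Library sizes without 5 very high genes were added after seeing the data.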

Additional observations from a re-analysis of the deposited data

Results flagged for a closer look

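Because all treated times share the untreated libraries, the effect at 1 treated time differs from that at another by the direct contrast between them. By that test 4 h differed from 2 h for Med12l (log2 0.6025) and Cdk19 (−0.5073). By the same test 4 h differed from 1 h for Med12l (0.6058), Ccnc (0.7369), Med14 (0.3066), Med21 (−0.3363) and Cdk19 (−0.7041). In each of these 7 contrasts all 3 clones moved the same way. The contrasts were chosen for passing the test on these same clones, so that agreement is no separate support. All 7 calls were lost without clone b (edgeR adjusted p 0.076 to 0.332) and without clone c (0.0969 to 0.404), in fits with 2 libraries per group.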

How the results depend on the processing

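Of 1533 values of the 32 tested members against untreated cells under an alternative, 1414 stayed on the same side of the threshold, 89 lost a call, 30 gained 1 and none changed the sign of a call. The clone letter as a replicate block raised the members called higher at 1 h from 0 to 3, at 2 h from 5 to 12 and lower at 2 h from 1 to 3, and those changed from 1 to 2 h from 0 to 3 and from 2 to 4 h from 2 to 5. Fits of the 2 groups alone, which have fewer samples, called 3 higher and 0 lower at 2 h, 6 higher at 4 h, 0 changed from 2 to 4 h and 3 from 1 to 4 h. Without a filter 0 were lower at 2 h, and DESeq2 called 2 changed from 1 to 2 h. The cause of these last shifts was not tested.

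With 1 library or 1 clone left out, members higher ranged from 0 to 8 at 2 h and from 1 to 11 at 4 h, and members lower from 0 to 1 and from 1 to 3. Members changed ranged from 0 to 1 (1 to 2 h), 0 to 3 (2 to 4 h) and 0 to 7 (1 to 4 h). Without clone b 1 member was higher at 4 h (and 0 at 2 h), and without clone c likewise 1 (and 0). Fits without a clone have 2 libraries per group. Outside the blocked fit, the share of all genes called under an alternative is not given here. Fewer calls of members there cannot be told apart from fewer calls over all genes. The log2 ratio of Med12l to Med12 at 4 h ranged from 0.34 to 0.49 with 1 library left out. That of Cdk19 to Cdk8 ranged from −1.62 to −0.83 at 1 h, from −0.44 to 0.35 at 2 h and from −1.69 to −0.90 at 4 h. Scaling moved the median of all genes by less than 0.1. Leaving 5 very high genes out of the library sizes changed none of the counts of members called.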
